A study of Mus musculus with 4 samples.

Results

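The genes described here encode the proteasome, the protease complex that degrades ubiquitin-tagged proteins. They were taken as the rows of a protein-coding expression table whose symbol starts with Psma, Psmb, Psmc, Psmd, Psme, Psmf or Psmg and a digit, and whose mean over the 4 libraries reached 1 FPKM. FPKM is the number of fragments scaled to transcript length and library size. Of 21899 rows 51 matched by symbol, and 48 of them passed the level filter. The lowest rows inside it were Psme2b, with a mean of 1.83 FPKM, and Psmc3ip, with 3.85. Outside it were a second row of Psmd5 with a mean of 0.279 FPKM, Psma8, a testis alpha subunit, with 0.262, and Psmb11, a catalytic subunit of the thymus, which was listed at 0 in every library.

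The libraries came from RNA sequencing of subcutaneous white adipose tissue of mice. There were 2 groups, miR-203 inhibitor and negative control, with 2 libraries each, named control 1, control 2, inhibitor 1 and inhibitor 2 below. Each library was made from RNA pooled from 3 animals, so its values are those of a pool, and the spread between libraries is a spread between pools. The sources used here do not give strain, age, dose, route or duration. Adipocyte markers were high in every library, with Adipoq, which encodes adiponectin, between 997 and 1303 FPKM. Absolute depth is unknown, and the most common ratio of low values put the depth of the other libraries at 0.905 to 1.06 times that of control 1.

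The proteasome has a barrel-shaped core particle of alpha rings on the outside and beta rings on the inside. A regulatory particle of ATPases and other subunits binds ubiquitin chains, unfolds the substrate and feeds it into the core. The catalytic beta subunits exist in a constitutive form and in an immunoproteasome form, which interferon gamma induces and which leukocytes carry at rest. The immunoproteasome changes which peptides are cut for display on MHC class I molecules. The series title names interferon gamma beside miR-203, and this cytokine is the classical inducer of the immunoproteasome genes.

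The immunoproteasome subunits Psmb8, Psmb9 and Psmb10 and the activator subunit Psme1 were higher in the inhibitor libraries, by 1.53-fold to 2.00-fold. These 4 of the 48 genes rose at an adjusted p under 0.05 in limma, and 0 fell. That is 8.33% of the members, beside a background of 3.22% of the 12345 rows tested that rose and 0.267% that fell. The other 44 did not pass, although most of them lay slightly above the controls. In 33 of the 48 both inhibitor values were above both control values, which is 68.8%, beside 33.1% of all rows tested. In 0 of the 48 both were below, beside 19.1% of all rows. Positive log2 fold changes were found in 43 of the 48, or 89.6%, beside 60.0% of all rows. Psme2b is among the 33 and among the 43, and it reached the level filter only through the inhibitor libraries. Its mean was 0.675 FPKM in the control pools and 2.99 FPKM in the inhibitor libraries. The median log2 fold change, on the scale of log2(FPKM + 1) used throughout, was 0.18 over the 48 genes and 0.07 over all rows tested. Calls at an unadjusted p under 0.05 were made for 11 members, or 22.9%, beside 19.3% of all rows. The 48 genes differ from that background in level, with a median of 68.1 FPKM beside 12.0. They also differ in spread, with a median SE of 0.097 beside 0.148. The part of level and spread in these shares was not tested.

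**Figure D1:**
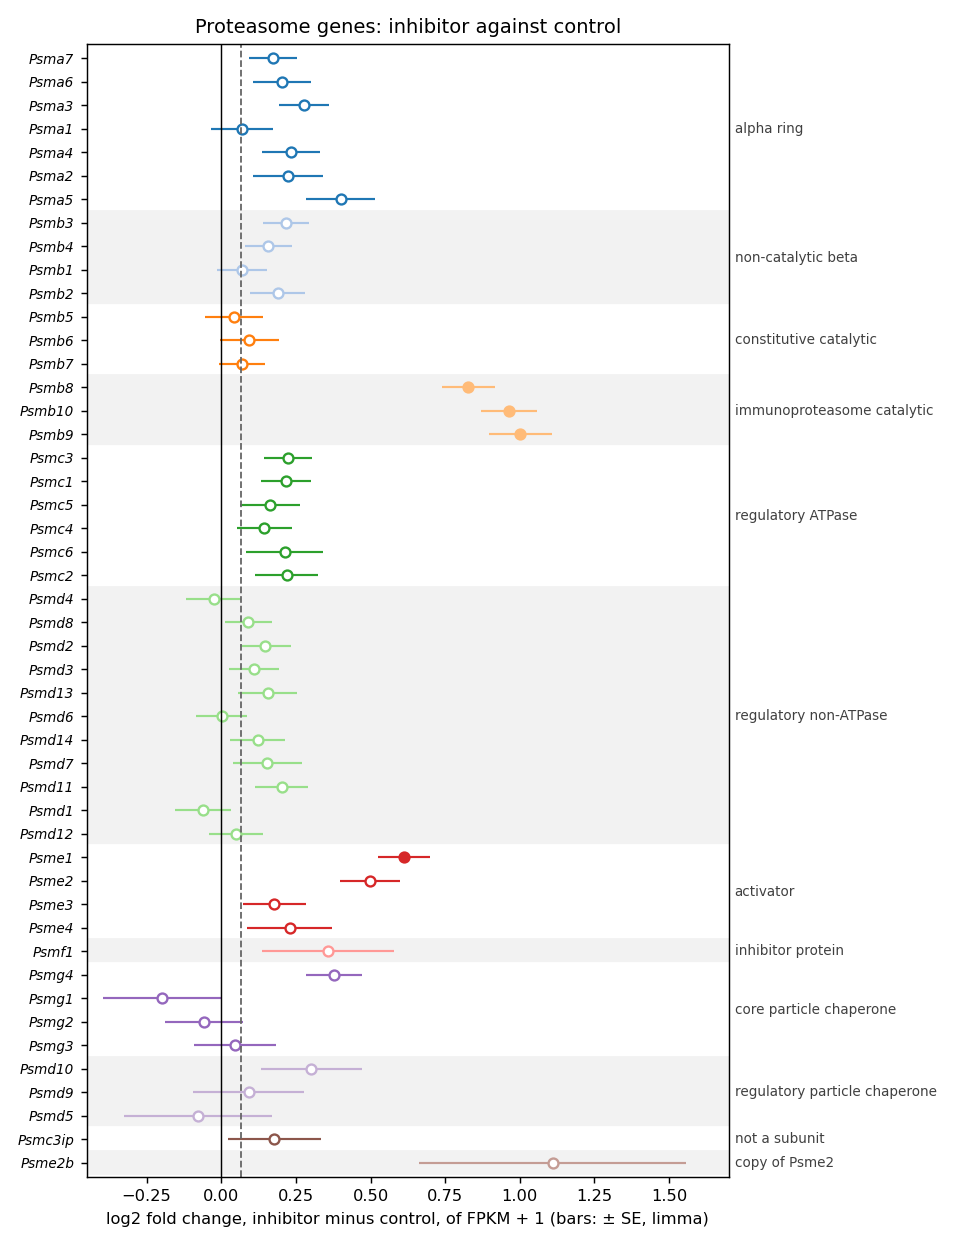
Log2 fold change of each of the 48 genes (horizontal axis, inhibitor minus control, of FPKM + 1) with its standard error, grouped by role; filled points passed an adjusted p of 0.05, and the dashed line is the median of all rows tested, 0.07. The 3 immunoproteasome catalytic subunits and Psme1 are the filled points, the constitutive catalytic subunits lie at 0.04 to 0.09, and Psme2b has a wide bar.

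Psmb8 encodes the immunoproteasome subunit that takes the place of Psmb5, the subunit that cuts after hydrophobic residues. Its level was 135 FPKM in control 1, 142 in control 2, 235 in inhibitor 1 and 259 in inhibitor 2. Both inhibitor libraries were above both controls, and the gap between the groups was wider than the gap within either. The log2 fold change was 0.83 ± 0.09 (SE, n = 2 libraries per group, limma adjusted p = 0.0148). On GRCm38, Psmb8 occupies 34197721 to 34201454 of chromosome 17, plus strand.

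Psmb9 takes the place of Psmb6, which cuts after acidic residues. It stood at 37.6 and 33.4 FPKM in the control pools and at 68.9 and 75.3 FPKM in the inhibitor libraries, again without overlap. Its log2 fold change was 1.00 ± 0.11 (adjusted p = 0.0142), the highest of the 4 that rose. Psmb9 lies on the minus strand of the same chromosome at 34181987 to 34187764, and Tap1, a subunit of the peptide transporter, starts beside it in the other direction. The annotations of Psmb9 and Tap1 share 212 bases, and Tap2 lies at 34203527 to 34216321, beyond Psmb8, so these 4 genes of antigen processing are neighbours.

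Psmb10 takes the place of Psmb7, which cuts after basic residues. Its levels were 52.8 and 49.0 FPKM in the control pools and 96.1 and 104 FPKM in the inhibitor libraries. The log2 fold change was 0.96 ± 0.09 (adjusted p = 0.0125), with the smallest p of the 48 genes. Psmb10 lies apart from the others, on chromosome 8 at 105935735 to 105938444. An antisense transcript, Gm16156, covers 2710 bases of it, and Gm20496 covers 2139 bases of Psmb8 from the opposite strand. The library kit was directional, but the sources used here do not say whether counting used the strand, so reads of such overlapping genes may not be separate.

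Leaving out inhibitor 1 or inhibitor 2 ended these calls, with adjusted p from 0.125 to 0.200 for the 3 subunits, as it ended every call over all rows. The log2 fold changes then lay between 0.76 and 0.90 for Psmb8, 0.94 and 1.06 for Psmb9 and 0.91 and 1.02 for Psmb10. Psmb8 also missed the threshold in a fit without the variance trend (adjusted p = 0.0549) and with no filter on low values (0.0506), and Psmb9 in the latter (0.050006). Without control 1 the count of members that rose was 5, and without control 2 it was 4.

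The constitutive counterparts showed no such gap. Psmb5 had 125 and 143 FPKM in the control pools and 141 and 135 in the inhibitor libraries, and Psmb6 had 122 and 140 FPKM against 143 and 137. In both genes the groups overlapped, and control 1 was the lowest library. Psmb7 had 124 FPKM in both control pools and 131 and 129 FPKM in the inhibitor libraries. The log2 fold changes were 0.04 ± 0.10 for Psmb5, 0.09 ± 0.10 for Psmb6 and 0.07 ± 0.08 for Psmb7 (adjusted p = 0.850, 0.654 and 0.674). Upper quartile scaling turned all 3 slightly negative, at -0.06, -0.01 and -0.04.

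**Figure D2:**
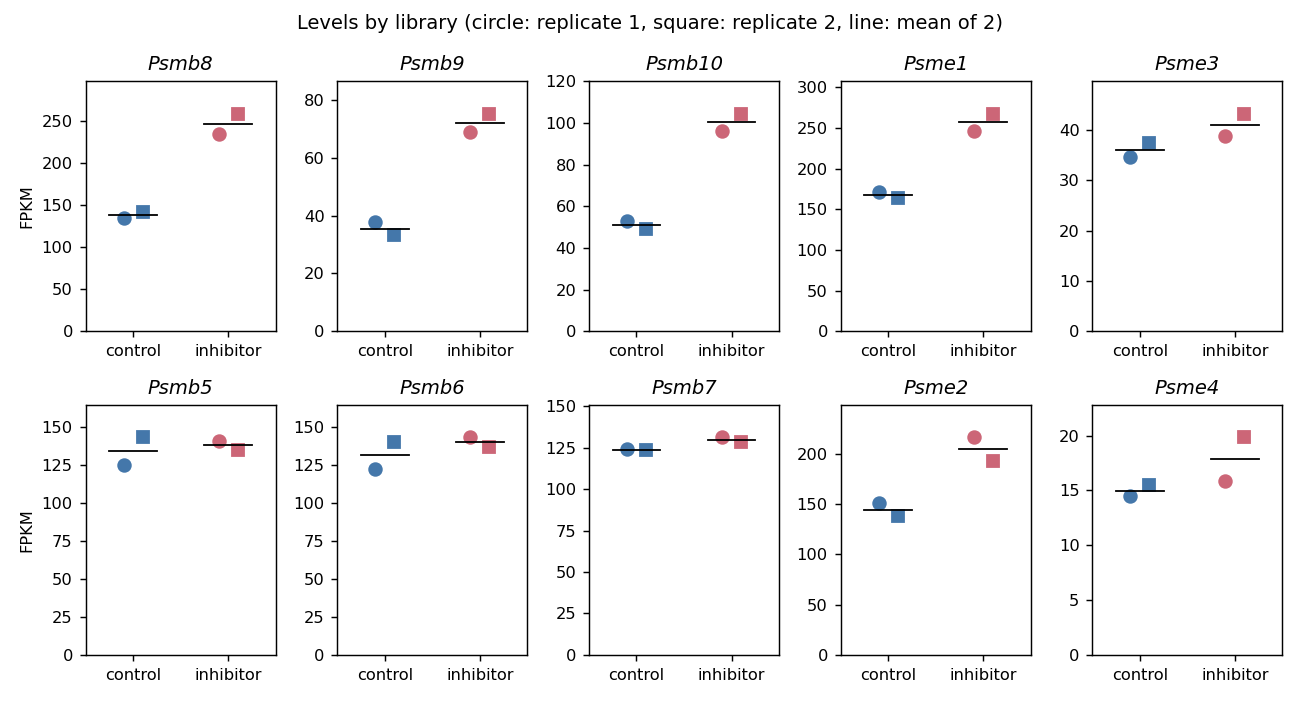
FPKM of the 3 immunoproteasome subunits above their constitutive counterparts, and of the 4 activator genes, in each library (circles are replicate 1, squares replicate 2, lines the mean of 2). Psmb8 goes from 135 and 142 to 235 and 259 FPKM, while Psmb5 stays between 125 and 143.

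Levels of both forms can be set against each other inside a library, where the scaling of the library does not matter. Psmb8 made up 51.9% and 49.8% of the summed FPKM of Psmb8 and Psmb5 in the control pools, and 62.5% and 65.7% in the inhibitor libraries. In the controls the pair was thus near parity, and in the inhibitor libraries Psmb8 was the larger. Psmb9 held 23.6% and 19.2% of its pair with Psmb6 in the control pools, and 32.5% and 35.5% in the inhibitor libraries. Psmb10 held 29.9% and 28.4% of its pair with Psmb7, and 42.3% and 44.8%. Psmb6 and Psmb7 remained the larger partner in each library. The ratios went up 1.73-fold for Psmb8 to Psmb5, 1.90-fold for Psmb9 to Psmb6 and 1.88-fold for Psmb10 to Psmb7, with no overlap between groups. An exact permutation test, two-sided, gave p = 0.333 for each of these 3 ratios, which is the smallest p that 2 libraries against 2 allow, so the test cannot pass here. Summed over the 3 subunits, the immunoproteasome held 37.8% and 35.5% of catalytic subunit FPKM in the control pools, and 49.1% and 52.3% in the inhibitor libraries.

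Most markers shared by leukocytes were also higher in the inhibitor libraries, and those of macrophages were split. The 10 markers shared by leukocytes, such as Ptprc, which encodes CD45, summed to 1108 and 860 FPKM in the control pools and 1570 and 1639 FPKM in the inhibitor libraries. Of the 10, 6 rose and 0 fell, beside 3.22% and 0.267% of all rows, 9 were separate and higher, beside 33.1% of all rows, and none was at 0. The 10 macrophage markers summed to 2192 and 2365 FPKM against 2646 and 2478, with 2 that rose and 1 that fell. Of these 10, 5 were separate and higher, beside 33.1% of all rows. Another 4, Cd163, Mrc1, Lyz2 and Csf1r, were separate and lower, beside 19.1% of all rows. The 10 measured T and NK cell markers, of 11 listed, summed to 103 and 68.5 FPKM against 198 and 226. Of these 10, 3 rose (Gzma, Gzmb and Klrb1c) and 0 fell, beside 3.22% and 0.267% of all rows. The groups were separate and higher in 5, beside 33.1% of all rows, and overlapped in the other 5. Those that overlapped were Cd3d, Cd3e, Cd3g, Cd4 and Cd8a, each lowest in control 2. Cd3g, for example, had 16.3 and 2.77 FPKM against 14.3 and 20.4. Adipocyte markers summed to 18344 and 18585 FPKM against 15205 and 14154, with 0 of 8 past the test and 7 of 8 separate and lower, beside 19.1% of all rows. In bulk tissue a change in the number of cells of a type and a change in RNA per cell cannot be told apart, and the part of these markers in the result was not tested.

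Set against the summed leukocyte markers, an alternative chosen after the data were seen, the genes differed in whether groups overlapped. Psmb9 had 3.40 and 3.88 FPKM per 100 FPKM of these markers in the control pools and 4.39 and 4.59 in the inhibitor libraries, and Psmb10 had 4.77 and 5.69 against 6.12 and 6.37. For Psmb8, with 12.2 and 16.5 against 14.95 and 15.8, and for Psme1, with 15.5 and 18.998 against 15.7 and 16.3, the groups overlapped. They also overlapped for Psme2, with 13.7 and 16.03 against 13.8 and 11.8. Psmb5, whose FPKM overlapped between groups, became separate and lower on this scale, with 11.3 and 16.6 against 8.98 and 8.23. The 8 markers of B cells and lymph node tell the controls apart, with a sum of 374 FPKM in control 1, 3.86 in control 2, 161 in inhibitor 1 and 186 in inhibitor 2. Defining B cell markers were near 0 in control 2, with Ms4a1 at 0.0775 and Cr2 at 0.0183 FPKM. The summed level of Psmb8, Psmb9 and Psmb10 was 225 FPKM in control 1, 224 in control 2, 399.8 in inhibitor 1 and 439 in inhibitor 2.

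**Figure D3:**
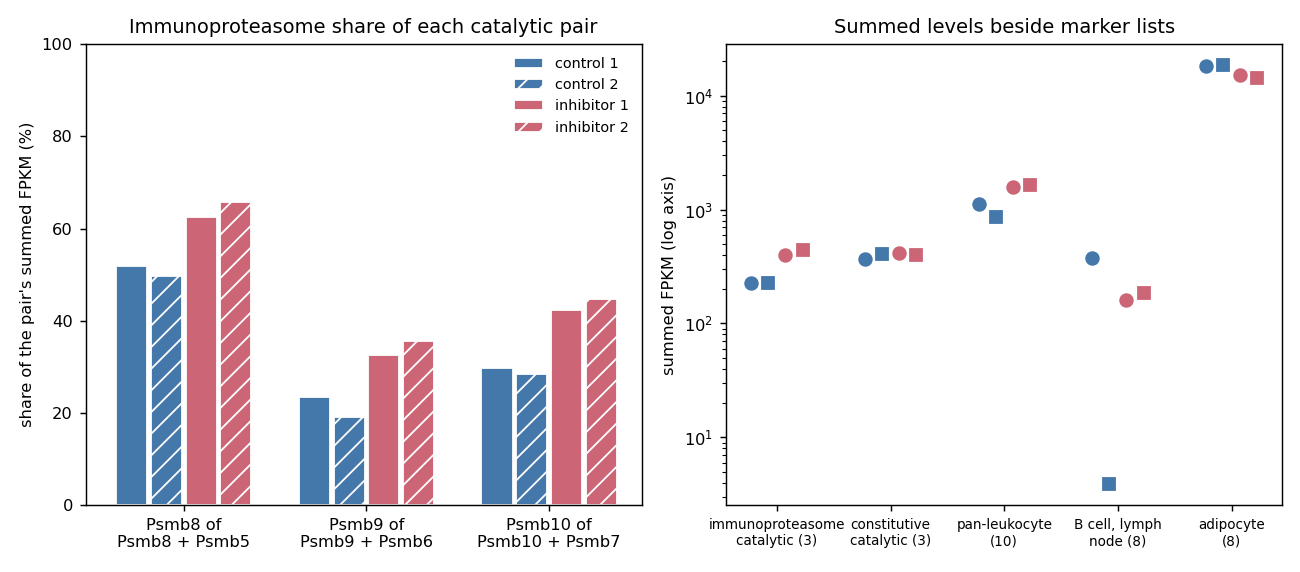
Left, share (percent) of each immunoproteasome subunit in the summed FPKM of its pair, by library; right, summed FPKM on a log axis of the catalytic subunits and of marker lists (number of genes in brackets). The Psmb8 share goes from 51.9% and 49.8% to 62.5% and 65.7%; the leukocyte sum is higher in the inhibitor libraries, and the B cell and lymph node sum is 3.86 in control 2.

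Promoter sequence is shown for these subunits because they moved together, and for Psmb5 and Psmb6 as counterparts that did not pass. The stretches are the 250 bases before the RefSeq start of the gene on GRCm38.p6, read 5′ to 3′ on the gene's strand. Capitals mark a gamma-activated site (TTCNNNGAA, an element known from interferon gamma induced promoters) or the core of an antioxidant response element (TGACNNNGC, bound by the factors NRF1 and NRF2, which raise proteasome genes). The RefSeq starts of Psmb8, Psmb9, Psmb10, Psmb5 and Psme1 lie inside the longer GENCODE gene spans given here. No promoter entry was used for Psmb7.
Psmb8, chr17:34197945-34198194, plus strand: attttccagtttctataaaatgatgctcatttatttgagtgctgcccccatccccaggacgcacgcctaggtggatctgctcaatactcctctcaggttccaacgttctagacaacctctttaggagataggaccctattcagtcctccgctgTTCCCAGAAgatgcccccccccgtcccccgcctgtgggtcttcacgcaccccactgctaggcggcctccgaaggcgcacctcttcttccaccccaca
Psmb9, chr17:34187331-34187580, minus strand: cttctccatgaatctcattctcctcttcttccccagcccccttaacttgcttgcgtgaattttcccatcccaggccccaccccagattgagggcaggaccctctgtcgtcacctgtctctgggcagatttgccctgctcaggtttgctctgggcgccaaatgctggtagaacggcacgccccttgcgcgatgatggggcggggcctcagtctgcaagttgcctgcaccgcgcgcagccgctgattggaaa
Psmb10, chr8:105938393-105938642, minus strand: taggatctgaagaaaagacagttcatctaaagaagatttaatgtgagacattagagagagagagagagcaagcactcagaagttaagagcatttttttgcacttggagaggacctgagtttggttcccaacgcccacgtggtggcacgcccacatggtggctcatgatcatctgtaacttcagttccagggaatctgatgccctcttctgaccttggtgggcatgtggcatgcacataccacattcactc
Psmb5, chr14:54617996-54618245, minus strand: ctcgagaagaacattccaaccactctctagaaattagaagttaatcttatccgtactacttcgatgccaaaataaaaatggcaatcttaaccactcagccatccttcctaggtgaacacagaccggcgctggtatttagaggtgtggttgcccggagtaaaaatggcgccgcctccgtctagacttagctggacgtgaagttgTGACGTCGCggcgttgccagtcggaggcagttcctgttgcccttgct
Psmb6, chr11:70525107-70525356, plus strand: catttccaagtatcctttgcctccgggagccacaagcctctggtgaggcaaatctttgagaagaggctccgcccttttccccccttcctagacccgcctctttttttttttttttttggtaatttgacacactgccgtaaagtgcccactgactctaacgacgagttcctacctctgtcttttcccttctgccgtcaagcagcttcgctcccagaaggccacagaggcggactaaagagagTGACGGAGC

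The search covered both strands of windows of 300 bases, from 250 before to 50 after the start, and 41 of the 48 genes had such a window. Among the 5 stretches shown, Psmb8 held a gamma-activated site, whose first base is at -97, and Psmb5 and Psmb6 held the antioxidant element, at -47 and -9. In all, 3 of the 41 genes held TTCNNNGAA (Psmb8, Psmd2 and Psmg1), which is 7.32%, beside 8.50% of the 9342 tested genes with a window and 8.30% of all 32851 windows. TGACNNNGC was in 6 of the 41, or 14.6%, beside 17.04% of tested genes and 12.4% of all windows. The interferon-stimulated response element, searched as GAAA, any pair of bases and GAAA again, was in 5 of 41, which are Psmb3, Psmd4, Psmd9, Psme1 and Psmg4. That is 12.2%, beside 4.05% of tested genes and 3.44% of all windows. Of these 5 genes only Psme1 passed the threshold, and the windows of Psmb8, Psmb9 and Psmb10 held no match to this element. In Psme1 its first base is 10 bases into the transcript, and the 30 bases from the RefSeq start are shown with the element in capitals, read on the reverse strand.
Psme1, chr14:55578494-55578523, plus strand: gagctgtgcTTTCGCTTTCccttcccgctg
CCAAT, the letters bound by NF-Y, was in 14 of 41, or 34.1%, beside 42.8% of tested genes and 37.4% of all windows. A match of letters is a description and not a site, and no match in these windows says nothing of elements elsewhere.

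The activators cap the ends of the core particle in place of the regulatory particle. Psme1 and Psme2 encode the subunits of the interferon-induced activator PA28 and lie near each other on chromosome 14, at 55578123 to 55581529 and 55587441 to 55591113. Psme1 had 172 and 163 FPKM in the control pools and 246 and 267 in the inhibitor libraries, and rose by a log2 of 0.61 ± 0.09 (adjusted p = 0.0296). Upper quartile scaling (adjusted p = 0.0533), a fit without the variance trend (0.0996), no filter on low values (0.0674) and leaving out inhibitor 1 (0.166) or inhibitor 2 (0.295) ended that call.

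Psme2 had 151 and 138 FPKM in the control pools and 217 and 193 in the inhibitor libraries. The groups did not overlap, but with a log2 fold change of 0.50 ± 0.10 it missed the threshold (adjusted p = 0.0733). It passed without control 1 (adjusted p = 0.0471). Psme3, the subunit of a nuclear activator that interferons are not known to induce, had 34.7 and 37.5 FPKM against 38.7 and 43.3, and Psme4, the single-chain activator PA200, had 14.5 and 15.5 FPKM against 15.9 and 19.8. Neither passed, with log2 fold changes of 0.18 ± 0.10 and 0.23 ± 0.14 (adjusted p = 0.416 and 0.437). Inside a library Psme1 was 4.95 and 4.36 times as high as Psme3 in the control pools and 6.36 and 6.18 times in the inhibitor libraries. For Psme2 to Psme3 the ratios were 4.36 and 3.68 in the control pools against 5.59 and 4.46, so inhibitor 2 was only just above control 1. Neither ratio was among the planned comparisons.

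The 7 alpha subunits, which form the gate of the core, were all slightly higher on average and none passed. Their log2 fold changes ran from 0.07 for Psma1 to 0.40 for Psma5, with a median of 0.22, and the groups were separate and higher in 6 of the 7, beside 33.1% of all rows. Psma7 had the highest mean of them, with 139 and 148 FPKM in the control pools and 162 in both inhibitor libraries. Psma5 was the lowest by level and had the largest difference, with 49.0 and 56.2 FPKM against 65.3 and 74.1 FPKM. Its log2 fold change of 0.40 ± 0.12 had an adjusted p of 0.154. In Psma1 the groups overlapped, with 134 and 149 FPKM against 140 and 158, and its sign turned under upper quartile scaling and quantile normalization.

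The 4 non-catalytic beta subunits gave the same picture, with log2 fold changes of 0.07 for Psmb1 to 0.22 for Psmb3 and 0 calls. Psmb3, the highest of them by level, had 139.5 and 141 FPKM in the control pools and 161 and 166 in the inhibitor libraries (log2 fold change 0.22 ± 0.08, adjusted p = 0.221). Psmb2, the lowest, had 106 and 120 FPKM against 130.1 and 128. The groups were separate and higher in all 4, beside the same 33.1%, but in Psmb1 only narrowly. Psmb1 had 122.86 and 119.6 FPKM in the control pools against 122.91 and 131.6, and its sign turned under upper quartile scaling and quantile normalization.

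Over the 14 standard subunits of the core the median log2 fold change was 0.18, and 11 of 14 were separate and higher, again beside 33.1% of all rows. Control 2 exceeded control 1 by a median log2 of 0.16 over the same 14, so the difference between groups was about as large as that between the controls. The median was 0.11 without control 1 and 0.22 without control 2, and it was 0.07 under upper quartile scaling. Transcripts of the mitochondrial genome, which take part in FPKM scaling, held 14.4% and 17.5% of summed FPKM in the control pools against 10.2% and 12.1%. With FPKM rescaled without them the median of the 14 was 0.13. The subunits occur in equal numbers in the assembled core, and the levels of their transcripts were less even. Their FPKM spanned 2.85 times from lowest to highest in control 1 and 2.24 times in inhibitor 2, with Psma5 the lowest in every library.

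**Figure D4:**
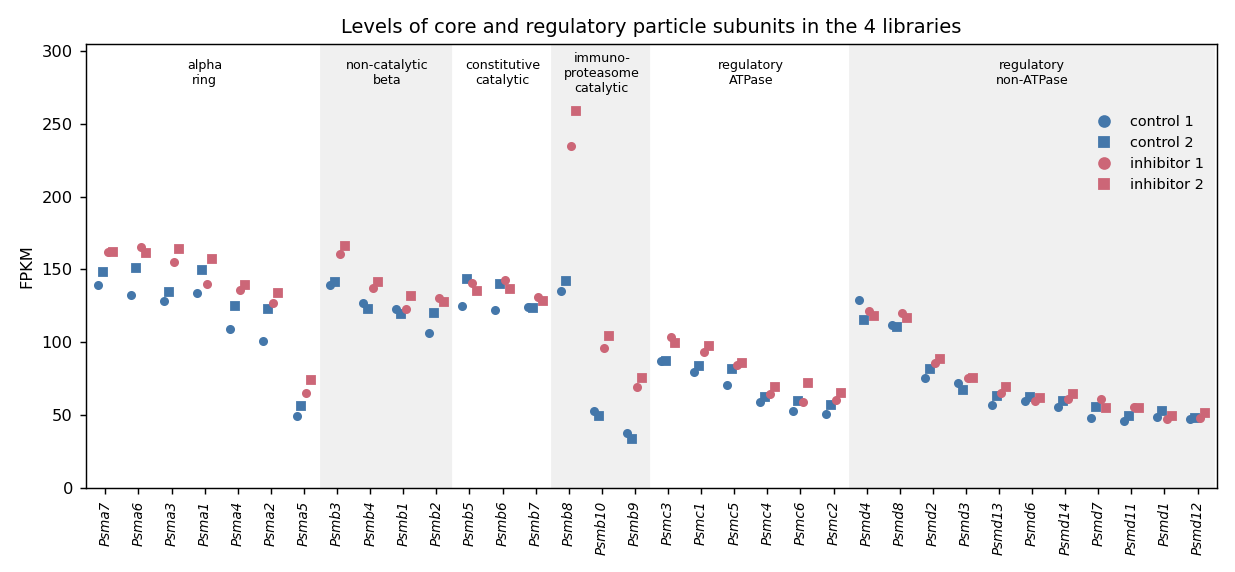
FPKM of each core and regulatory particle subunit in the 4 libraries (blue, controls; red, inhibitor). Psmb8 reaches 259 FPKM in inhibitor 2, above every other subunit plotted, while the regulatory subunits lie between 46.1 and 129 FPKM and their groups lie close together.

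The 6 ATPases, Psmc1 to Psmc6, form the ring that unfolds substrates. All 6 had positive log2 fold changes in a narrow range, from 0.14 for Psmc4 to 0.22 for Psmc3, and 0 passed. Psmc3 was the highest, with 86.9 FPKM in both control pools and 104 and 99.7 in the inhibitor libraries (log2 fold change 0.22 ± 0.08, adjusted p = 0.220). Psmc2 was the lowest by mean level, with 50.4 and 57.2 FPKM against 60.0 and 65.4. Only in Psmc6 of these 6 did the groups overlap, with 52.7 and 59.6 FPKM against 59.1 and 71.7.

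The 11 other subunits of the regulatory particle had a median log2 fold change of 0.11, and 0 passed. Psmd4, a ubiquitin receptor, was the highest of them by level, at 129 and 115 FPKM in the control pools and 122 and 118 in the inhibitor libraries. Its groups overlapped (log2 fold change -0.03 ± 0.09, adjusted p = 0.908). Psmd12 was the lowest, at 47.5 and 48.0 FPKM against 47.6 and 51.4 FPKM. The largest difference was in Psmd11, at 46.1 and 49.4 FPKM against 55.3 and 54.8 (log2 fold change 0.20 ± 0.09, adjusted p = 0.297). Psmd14, the protease that removes ubiquitin chains before degradation, had 55.2 and 59.7 FPKM against 60.8 and 64.4. Psmd1 and Psmd2 encode the large scaffold subunits, and they differed in sign, at -0.06 ± 0.09 and 0.15 ± 0.09, neither past the test. The closest to no difference was Psmd6, with a log2 fold change of 0.0014 ± 0.0852, whose 59.4 and 62.2 FPKM in the control pools met 59.9 and 61.8 in the inhibitor libraries. Together the 17 subunits of the regulatory particle had a median of 0.15, which was 0.04 under upper quartile scaling and 0.07 under quantile normalization.

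Genes that build or restrain the complex were lower in level, at 9.98 to 25.7 FPKM on average, and more uneven between libraries. Psmg1 and Psmg2 encode a pair of chaperones that assembles the alpha ring, and Psmg3 and Psmg4 another pair. Psmg4 had 22.3 and 22.1 FPKM in the control pools and 29.2 and 29.1 in the inhibitor libraries, so its replicates nearly coincided. Its log2 fold change of 0.38 ± 0.09 had an adjusted p of 0.115, the smallest of the 43 genes outside the immunoproteasome subunits, Psme1 and Psme2. Its partner Psmg3 had 11.6 and 10.1 FPKM against 11.9 and 10.5, with overlap (log2 fold change 0.05 ± 0.14, adjusted p = 0.886). Psmg1 had 16.4 and 20.6 FPKM against 13.4 and 18.9, with a gap of 0.31 on the log2 scale between the controls and of 0.46 between the inhibitor libraries. That exceeded its log2 fold change of -0.20 ± 0.20.

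Chaperones of the regulatory particle were Psmd5, Psmd9 and Psmd10, the last known as gankyrin. Psmd10 had 12.9 and 12.4 FPKM in the control pools and 18.5 and 13.5 in the inhibitor libraries, a difference carried mainly by inhibitor 1 (log2 fold change 0.30 ± 0.17, adjusted p = 0.399). Psmd5 had 11.5 and 8.87 FPKM against 7.48 and 12.1, so that inhibitor 1 was the lowest library and inhibitor 2 the highest. Psmd9 had 10.1 and 13.3 FPKM against 11.04 and 14.1. Psmf1, which encodes the proteasome binding protein PI31, first described as an inhibitor, had 19.4 FPKM in control 1, 12.3 in control 2, 18.8 in inhibitor 1 and 21.5 in inhibitor 2. Control 2 stood apart there, and the log2 fold change of 0.36 ± 0.22 (adjusted p = 0.437) was 0.05 without that library.

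Psmc3ip and Psme2b met the rule but are not subunits of the standard complex. Psmc3ip encodes a partner of Psmc3 known for its part in meiotic recombination, and it had 3.33 and 3.78 FPKM in the control pools and 4.04 and 4.26 in the inhibitor libraries (adjusted p = 0.587). Psme2b is a copy of Psme2, with 99.3% identity over 717 coding bases. It had 0.787 and 0.563 FPKM in the control pools, 1.28 in inhibitor 1 and 4.69 in inhibitor 2, so its log2 fold change of 1.11 ± 0.45 (adjusted p = 0.266) rested largely on 1 library. It lies on chromosome 11 at 48945354 to 48946190, wholly inside Gm12185 on the same strand, which had 0.327 and 0.350 FPKM against 1.54 and 2.94. Reads of Psme2, Psme2b and Gm12185 may therefore not be separate. Copies with at least 90% identity over at least 50% of the coding sequence, mostly processed pseudogenes, were found in the annotation for 16 of the 48 genes when copies that overlap the gene itself were left out, Psme1 and Psme2 among them and Psmb8, Psmb9 and Psmb10 not.

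Of 33 listed symbols of partners and regulators of the proteasome, 5 had no row under that symbol, among them newer names of genes with a row under an older one, and 28 were measured. Of these 28, 0 rose and 0 fell in limma. At an unadjusted p under 0.05 there were 10, or 35.7%, beside 19.3% of all rows, and of these Nfe2l1 alone was lower. The groups were separate and higher in 14 of the 28, beside 33.1% of all rows, and separate and lower in 8, beside 19.1%. The median log2 fold change of the 28 was 0.11, beside 0.07 over all rows. Pomp, the chaperone that completes the core particle and is known to favour assembly of immunoproteasomes, had 133 and 141 FPKM in the control pools and 184 and 185 in the inhibitor libraries. Its log2 fold change of 0.43 ± 0.08 missed the threshold (adjusted p = 0.0621) and passed when rows under 5 FPKM were left out (adjusted p = 0.0463). Nfe2l1, which encodes the factor NRF1 that raises proteasome genes when the proteasome is short and is known to do so in brown fat, went the other way. It had 157 and 151 FPKM in the control pools and 126 and 114 in the inhibitor libraries (log2 fold change -0.36 ± 0.09, adjusted p = 0.116). Ddi2, the protease that activates NRF1, had 8.80 and 8.09 FPKM against 10.9 and 13.2, and Ufd1l, a cofactor of the segregase VCP, had 38.5 and 40.9 FPKM against 49.6 and 48.0 (adjusted p = 0.179 and 0.175).

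Genes that act after the proteasome on the class I path were compared with the immunoproteasome subunits. Of 14 measured, 5 rose and 0 fell, beside 3.22% and 0.267% of all rows, and 13 were separate and higher, beside 33.1% of all rows. The median log2 fold change was 0.53. Among the 5 were Tap1, Tap2, Tapbp, which holds class I molecules at the transporter, and Nlrc5, the activator of class I genes. The Tapbp call was ended by 7 of 14 alternative settings, upper quartile scaling among them, and the Nlrc5 call by 4. Tap1, which shares its promoter region with Psmb9, had 51.5 and 42.4 FPKM in the control pools and 110.0 and 113 in the inhibitor libraries, a log2 fold change of 1.23 ± 0.12 (adjusted p = 0.0119). Tap2 had 45.9 and 41.1 FPKM against 66.0 and 67.4 (log2 fold change 0.61 ± 0.10, adjusted p = 0.0396), a call that 9 of 14 alternative settings ended, among them upper quartile scaling (0.0610) and leaving out control 2 (0.0736). Irf1, an interferon-induced factor known to act on the Psmb9 and Tap1 promoter, had 56.2 and 49.1 FPKM against 79.2 and 99.8 and missed the threshold (adjusted p = 0.0646). B2m and H2-K1, which encode chains of the class I molecule, had adjusted p = 0.0719 and 0.0506, with log2 fold changes of 0.55 and 0.57.

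Matches to the miR-203 seed were looked for in the members because the treatment is aimed at that microRNA. The mature strand has its seed, bases 2 to 8, in capitals.
mmu-miR-203-3p: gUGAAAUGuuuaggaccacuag
The complement of the seed, CATTTCA, was present in the longest annotated 3' untranslated region of 3 of the 48 genes, or 6.25%, beside 16.8% of the 12189 rows tested that have such a region. These regions were short in the members, with a median of 282 bases against 1153 over all rows. Within the middle 50% of the members' lengths, 0 of 24 members and 3.51% of the rows tested held a match, and the 3 members with a match have longer regions, of 702, 1281 and 2842 bases. The matches are shown in capitals with the bases around them.
Psme4, first match: cattctgggctCATTTCAtcaaaaactcc
Psme4, next match: gtaggttctctCATTTCAttcatctcacg
Psmb1: gaaactcagttCATTTCAgtttaagagct
Psmd5: ttattattttgCATTTCAtaagtgtggtg
The 3 genes had log2 fold changes of 0.23, 0.07 and -0.08, and none passed. None of the 4 genes that rose held a match in the region searched.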

How the data were processed

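FPKM values of protein-coding genes, made with Cufflinks per the file headers, were deposited by the authors. The submitters' processing notes name TopHat2 2.0.11, TopHat, Cufflinks 2.1.1 and the build mm10, and the sources used here give neither annotation nor settings. FPKM keeps no absolute depth, so no counting interval is given.

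Columns were assigned to samples by title. On the scale of log2(FPKM + 1), 12345 rows whose mean reached 1 FPKM entered a limma fit (version 3.58.1, R 4.3.3, eBayes with a trend, two-sided, Benjamini-Hochberg over all rows tested, threshold 0.05). Standard errors are limma's moderated ones, with 5.29 total degrees of freedom, 2 of them residual. Nothing says that pools are more than separate samples of a group, so p-values rest on the spread between these pools. For each gene that spread is estimated in part from the other rows tested, and not from its own values alone. The fit was tested on simulated data with planted changes larger than those of the proteasome genes that rose. That test does not show how well changes of their size are found.

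The genes and lists were chosen with earlier results of these data known. Values are given for every gene past the threshold, the immunoproteasome subunits and their counterparts, the activators, Psmf1, and, per role, the highest, the lowest and the most changed gene; of each related list, up to 4 genes with the smallest p, and Nfe2l1, Pomp, Tap1 and Tap2. Of the class I list, 1 gene that the rule covers is not reported here. Further genes were named after their values had been seen. Identifiers of all 48 genes matched GENCODE M21 (GRCm38); copies were sought with blastn 2.17.0. Promoters and the microRNA sequence are from RefSeq on GRCm38.p6.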

Additional observations from a re-analysis of the deposited data

How the results depend on the processing

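Values are those of limma on log2(FPKM + 1) with 1 setting changed at a time, and among the genes named from the proteasome, partner and class I lists, none past the threshold changed sign in the settings tried. The cause of each difference was not tested, except that leaving out an inhibitor library leaves the spread to the controls alone, with the lone library assumed to vary like them. The count of proteasome genes that rose, 4, was 2 without the variance trend and 1 with no filter on low values, and it ranged from 0 to 5 when a library was left out. Psmb8 was lost in both of these settings (adjusted p = 0.0549 and 0.0506), Psme1 likewise (0.0996 and 0.0674), and Psmb9 with no filter (0.050006). Of the other 43 genes 0 were called in the main setting. The count of partners that rose, 0, was 1 among rows of at least 5 FPKM. The class I count, 5, was 2 without the trend, 2 with no filter, and 3 with the replicate block, with rescaling without mitochondrial genes and with upper quartile scaling; it ranged from 0 to 8 without a library. Over all rows the higher count, 397, was 215 without the trend, 122 with no filter, and 0 to 687 without a library. The lower count, 33, was 11 without the trend, 66 among rows of at least 5 FPKM, 10 with no filter, 92 with quantile normalization, 21 with the replicate block, 54 without mitochondrial genes, 55 with upper quartile scaling, and 0 to 98 without a library.

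The median log2 fold change of all rows, 0.07, was -0.03 with quantile normalization, -0.03 with upper quartile scaling and 0.02 without mitochondrial genes, so changes under these settings are relative to those shifts. The median of the immunoproteasome subunits was 0.88 with quantile normalization and 0.86 with upper quartile scaling; that of the regulatory particle was 0.0655 and 0.0424, and that of the standard core 0.113 and 0.0748, with 0.129 without mitochondrial genes and 0.106 to 0.223 without a library. With upper quartile scaling the sign turned, all uncalled, for Psma1 (-0.0365), Psmb1 (-0.0371), Psmb5 (-0.0634), Psmb6 (-0.0117), Psmb7 (-0.0372), Psmd6 (-0.104), Psmd8 (-0.0158), Psmd9 (-0.00694), Psmd12 (-0.0560) and Psmg3 (-0.0519). With quantile normalization it turned for Psma1 (-0.0151), Psmb1 (-0.0128), Psmb5 (-0.0122), Psmd6 (-0.0837), Psmd8 (-0.00281), Psmd9 (-0.00709), Psmd12 (-0.0526) and Psmg3 (-0.0591), and without mitochondrial genes for Psmb5 (-0.00922), Psmd6 (-0.04996), Psmd12 (-0.00250) and Psmg3 (-0.00207). The median of the constitutive catalytic subunits was -0.0372 with upper quartile scaling. Without a library in turn, log2 fold changes that crossed 0 ran from -0.0137 to 0.153 for Psma1, -0.0534 to 0.139 for Psmb5, -0.00462 to 0.193 for Psmb6, -0.109 to 0.0573 for Psmd4, -0.391 to 0.233 for Psmd5, -0.0321 to 0.0350 for Psmd6, -0.0883 to 0.272 for Psmd9, -0.00508 to 0.102 for Psmd12, -0.429 to 0.0342 for Psmg1, -0.160 to 0.0452 for Psmg2 and -0.0484 to 0.140 for Psmg3; for the median of the regulatory particle chaperones they ran from -0.0694 to 0.270.

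Whether equal replicate numbers pair the pools is not known. Deviations of same-numbered libraries from their group means had r = -0.00581 over 12345 rows and r = -0.143 over the proteasome genes. With 2 libraries per group such a correlation cannot decide whether the pools were paired. With the replicate block 3 proteasome genes rose, and Psme1 had an adjusted p of 0.0536. Absolute depth is unknown, so counting error could not be given for any gene.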
